A study of Mus musculus with 8 samples.

Results

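Imprinted genes are transcribed mainly or only from the copy inherited from 1 parent. A list of 46 imprinted mouse genes, arranged by locus, was followed through brain, heart, kidney and liver. The list was drawn up from what is known of mouse imprinting, not from the levels measured here. Earlier results of these data were known when it was chosen. Its members were picked out by gene symbol. The table held 27179 genes, 25904 of them with a symbol, and 45 of the 46 imprinted genes had a row in it. Nespas had none under that symbol. By common knowledge of these genes, 23 of the 46 are expressed from the paternal copy, 11 from the maternal copy, and 12 are imprinted only in some tissues or isoforms or show a weak or disputed bias. The reads give the sum over both parental copies, so allele-specific expression was not measured.

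Total RNA was sequenced from 8 libraries. Each of the 4 mouse organs was sequenced once from flash-frozen tissue and once from formalin-fixed, paraffin-embedded tissue (FFPE, how pathology departments store samples). The study set FFPE beside frozen tissue, and strain, age, sex and number of animals are not given in the labels. Reads assigned to genes numbered 10180972 in FFPE brain to 20526813 in frozen heart. Levels are given as CPM, reads scaled to a common library size with the scaling factor that underlies the deposited values, and wherever 2 values are given for an organ, the first is frozen and the second FFPE. In frozen brain a single read stands for 0.0397 CPM, and in frozen heart for 0.0975 CPM. The 3 reads taken as the floor for a count of 0 stand for 0.119 and 0.292 CPM in those libraries. These floors cover counting error only.

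Imprinted genes lie in clusters, each under an imprinting control region whose DNA methylation is set in the egg or sperm and kept by factors such as ZFP57 after fertilisation. Paternally expressed members include growth promoters such as Igf2. Maternally expressed members include growth restrainers such as the receptor Igf2r and the cyclin-dependent kinase inhibitor Cdkn1c. Grb10, another growth restrainer, was counted with the genes of tissue-dependent or disputed imprinting. Many are expressed strongly in the embryo and placenta and decline after birth, while a group that includes Ndn, Magel2, Peg3 and Nnat stays active in neurons, and much of it in the hypothalamus.

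The libraries did not come from a uniform set of animals. Frozen brain had 13170 reads of the female-specific Xist and 1 read over 4 Y-linked genes (Ddx3y, Eif2s3y, Kdm5d and Uty). The other 3 frozen libraries had 1 to 7 Xist reads and 1335 to 1552 reads of the Y-linked genes. The 4 FFPE libraries held both, with 4652 to 24213 Xist reads and 689 to 1576 Y-linked reads. Sex and organ therefore cannot be told apart between frozen brain and the other frozen libraries, and RNA of both sexes was present in each FFPE library. Summed markers fitted the labelled organs: 1642 and 1958 CPM of 10 neuron markers in brain, 31390 and 27070 CPM of 8 cardiomyocyte markers in heart, 10900 and 7232 CPM of 7 proximal tubule markers in kidney, and 58980 and 50720 CPM of 8 hepatocyte markers in liver. The 2 brain libraries differed in regional markers. The 9 hypothalamic genes summed to 103.6 CPM in frozen and 19.1 CPM in FFPE brain, 9 cerebellar genes to 148.7 and 423.7 CPM, and 6 pituitary hormone genes to 0.0397 and 271.7 CPM. In heart, 4 atrial genes summed to 18.0 and 853.7 CPM.

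Several members are hosts of microRNAs, short RNAs that repress messages through bases 2 to 8, the seed. In the RefSeq annotation of GRCm38.p6, 9 of the members contained same-strand hairpins, which give 43 mature miRNAs with 42 different seeds. Mirg contained 10 hairpins and Rian 3, while H19, Igf2, Mest, Meg3 and Usp29 contained 1 each. The only seed that occurred more than once, GGUUGCC, belonged to mmu-miR-453 and mmu-miR-496a-5p of Mirg. The sequences below are examples from hosts described further on, which were highest in brain (Meg3, Rian, Mirg and Mest) or in heart (H19 and Igf2), with the seed in capitals. The mature miRNAs themselves were not measured.
mmu-miR-770-5p, in Meg3: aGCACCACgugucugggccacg
mmu-miR-370-3p, in Rian: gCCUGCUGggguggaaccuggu
mmu-miR-453, in Mirg: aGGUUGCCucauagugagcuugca
mmu-miR-496a-5p, in Mirg: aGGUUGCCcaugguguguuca
mmu-miR-335-5p, in Mest: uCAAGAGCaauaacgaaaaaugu
mmu-miR-675-5p, in H19: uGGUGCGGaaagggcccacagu
mmu-miR-483-3p, in Igf2: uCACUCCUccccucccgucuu

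Promoter windows of 300 bases, 250 before to 50 after a start, were matched for 37 of the 46 genes in RefSeq (GRCm38.p6), 59 windows in all. They held a median of 17 CpG dinucleotides, against 7 over all 32851 windows. The hexamer TGCCGC, the core that ZFP57 binds when its CpG is methylated, was searched on both strands. It occurred in 14 of the 59 windows (23.7%), against 11.6% of all windows. The member windows that held it belonged to Calcr, Commd1, Copg2, Grb10, Igf2, Mcts2, Meg3, Mest, Nnat, Plagl1, Snrpn, Snurf and Zim1. Some of these windows overlap, as those of Snrpn and Snurf do, and the hexamer itself contains a CpG. A match describes the letters only. Sequences are shown for the pairs whose levels are compared further on, with each CpG in capitals. The first is the 96 bases between the divergent starts of Peg3 and Usp29. The other 2 are the 250 bases before the starts of Nnat and Mcts2, paternally expressed genes that sit inside the genes Blcap and H13.
Peg3-Usp29, chr7:6730463-6730558, plus strand: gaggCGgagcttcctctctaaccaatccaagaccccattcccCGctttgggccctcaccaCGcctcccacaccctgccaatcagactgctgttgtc
Nnat, chr2:157559828-157560077, plus strand: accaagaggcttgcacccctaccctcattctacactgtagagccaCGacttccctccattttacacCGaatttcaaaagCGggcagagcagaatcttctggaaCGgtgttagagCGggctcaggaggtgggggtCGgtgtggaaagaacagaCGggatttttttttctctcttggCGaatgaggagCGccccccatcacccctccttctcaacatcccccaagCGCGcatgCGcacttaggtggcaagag
Mcts2, chr2:152686898-152687147, plus strand: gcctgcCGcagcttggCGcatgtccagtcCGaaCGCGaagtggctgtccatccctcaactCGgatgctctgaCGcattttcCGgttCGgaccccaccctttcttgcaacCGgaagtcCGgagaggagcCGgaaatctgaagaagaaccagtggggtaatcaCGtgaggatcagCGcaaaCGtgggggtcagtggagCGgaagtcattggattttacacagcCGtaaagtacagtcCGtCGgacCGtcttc
The 3 stretches held 3, 12 and 20 CpG dinucleotides, and the hexamer occurred in the last of them only.

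Most of the imprinted genes that could be tested were highest in brain and low in liver. A limma model of organ and preparation was fitted to 15819 genes, those whose log2 CPM exceeded 0 in 2 or more libraries, and 38 of the members were among them. By the F-test over organs 34 of the 38 differed between organs at an adjusted p under 0.05, against 80.9% of all genes tested. The share of members is close to that background. In brain, 26 of the 38 were higher than the mean of the other 3 organs, against 34.7% of all genes, and 7 were lower, against 31.6%. In heart 9 were higher (21.5% of all genes) and 7 lower (28.7%). Without the scaling factor 6 were higher in heart (10.4% of all genes) and 19 lower (58.9%). In kidney 4 were higher (20.3% of all genes) and 18 lower (19.9%). In liver 2 were higher (27.3% of all genes) and 25 lower (35.2%). The brain difference had a median of 1.61 log2 units over the members tested and 0.05 over all genes, and the liver difference medians of −1.70 and −0.13. Begain, Dlk1, Magel2, Mirg and Nnat passed the filter through brain alone, H19 through heart alone and Phlda2 through kidney alone, so these counts and medians describe the tested members and are not support for a pattern. Over all genes 12.8% passed through 1 organ. Without the filter 29 of 45 members were higher in brain (22.9% of all genes) and 25 lower in liver (19.5%). Calls in brain, heart and kidney became fewer without the frozen library of that organ, among members and among all genes.

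**Figure D1:**
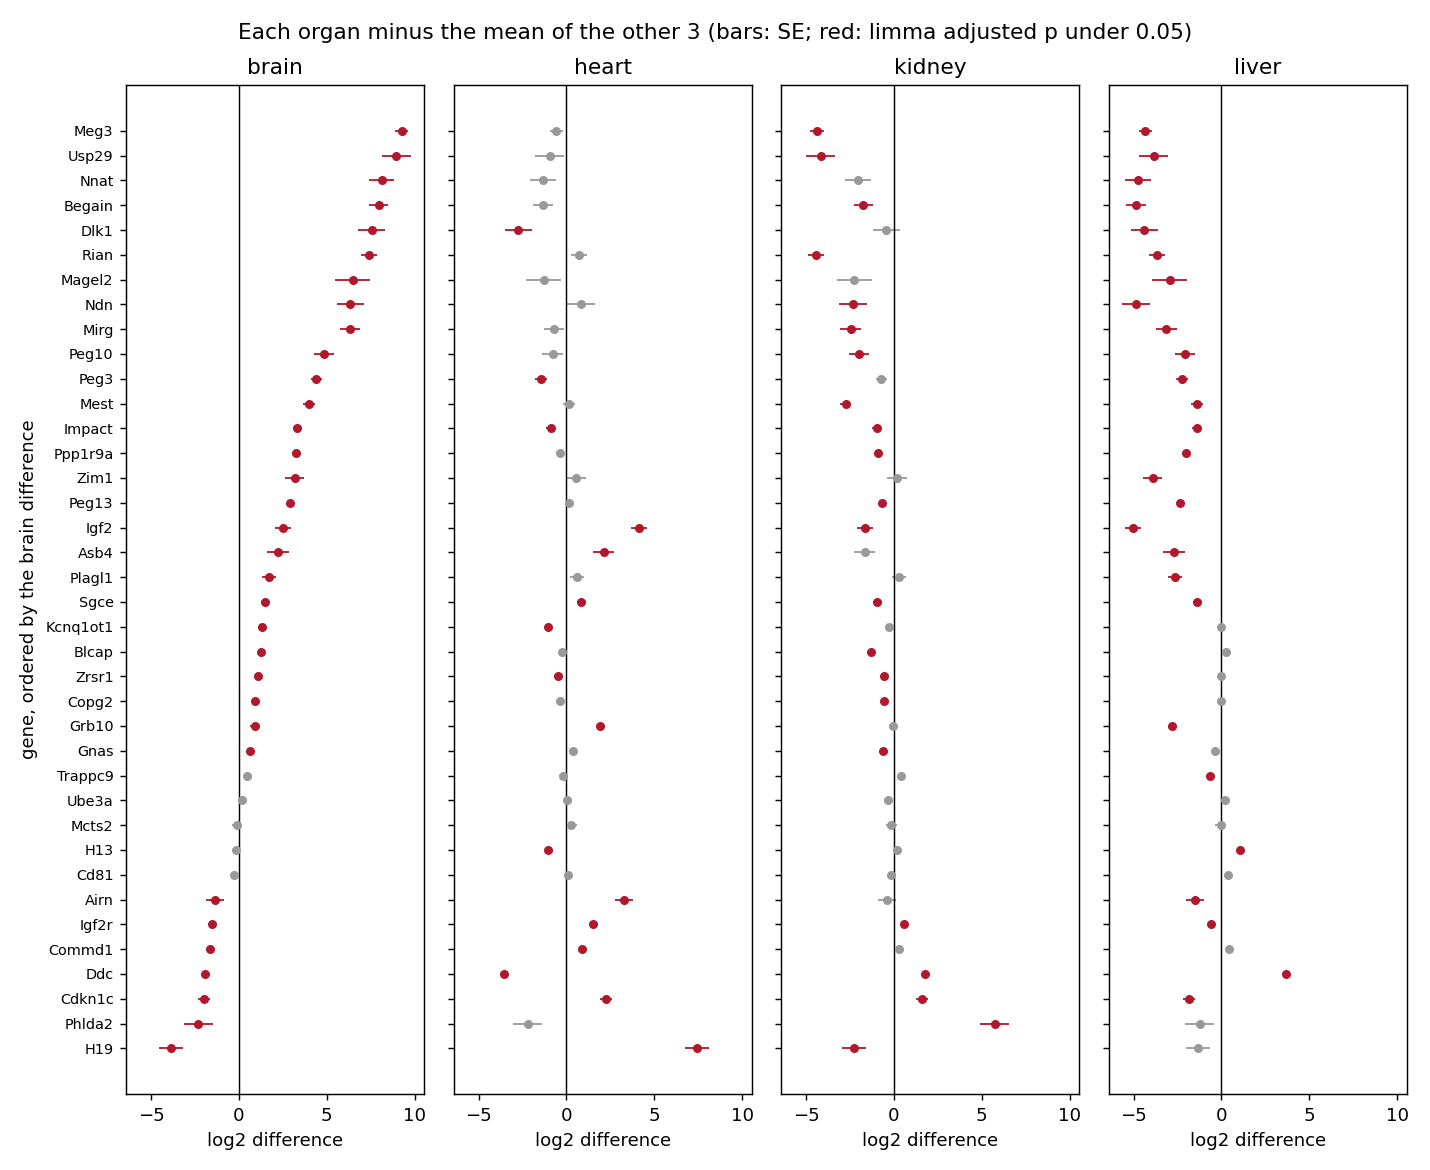
Log2 difference of each organ from the mean of the other 3 organs (x axis) for the 38 imprinted genes in the limma model (y axis, ordered by the brain difference); points are estimates, bars are 1 SE and red marks an adjusted p under 0.05. In brain 26 points are red on the right and 7 on the left; in liver 2 are red on the right and 25 on the left.

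Genes of both parental groups were among those higher in brain. Of 17 paternally expressed genes tested, 15 were higher in brain (34.7% of all genes), 1 lower in brain (31.6%) and 14 lower in liver (35.2%). The 10 maternally expressed genes were split in brain, with 6 higher and 4 lower, and 8 were lower in liver. Of the 11 with tissue-dependent or disputed imprinting, 5 were higher and 2 lower in brain. The groups include the genes named above that passed the filter through 1 organ, so their counts are a description. Whether the groups differ from each other was not tested. The organ with the highest mean was brain for 25 of the 38, heart for 8, liver for 4 and kidney for 1, Phlda2. Over all genes tested brain was highest for 35.9%, heart for 20.6%, liver for 27.7% and kidney for 15.7%. The heart share of members, 21.1%, is close to that background. The top organ was the same in both preparations for 30 of the 38 (78.9%), against 80.5% of all genes. The range between organ means had a median of 3.81 log2 units over the members and 2.32 over all genes tested.

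**Figure D2:**
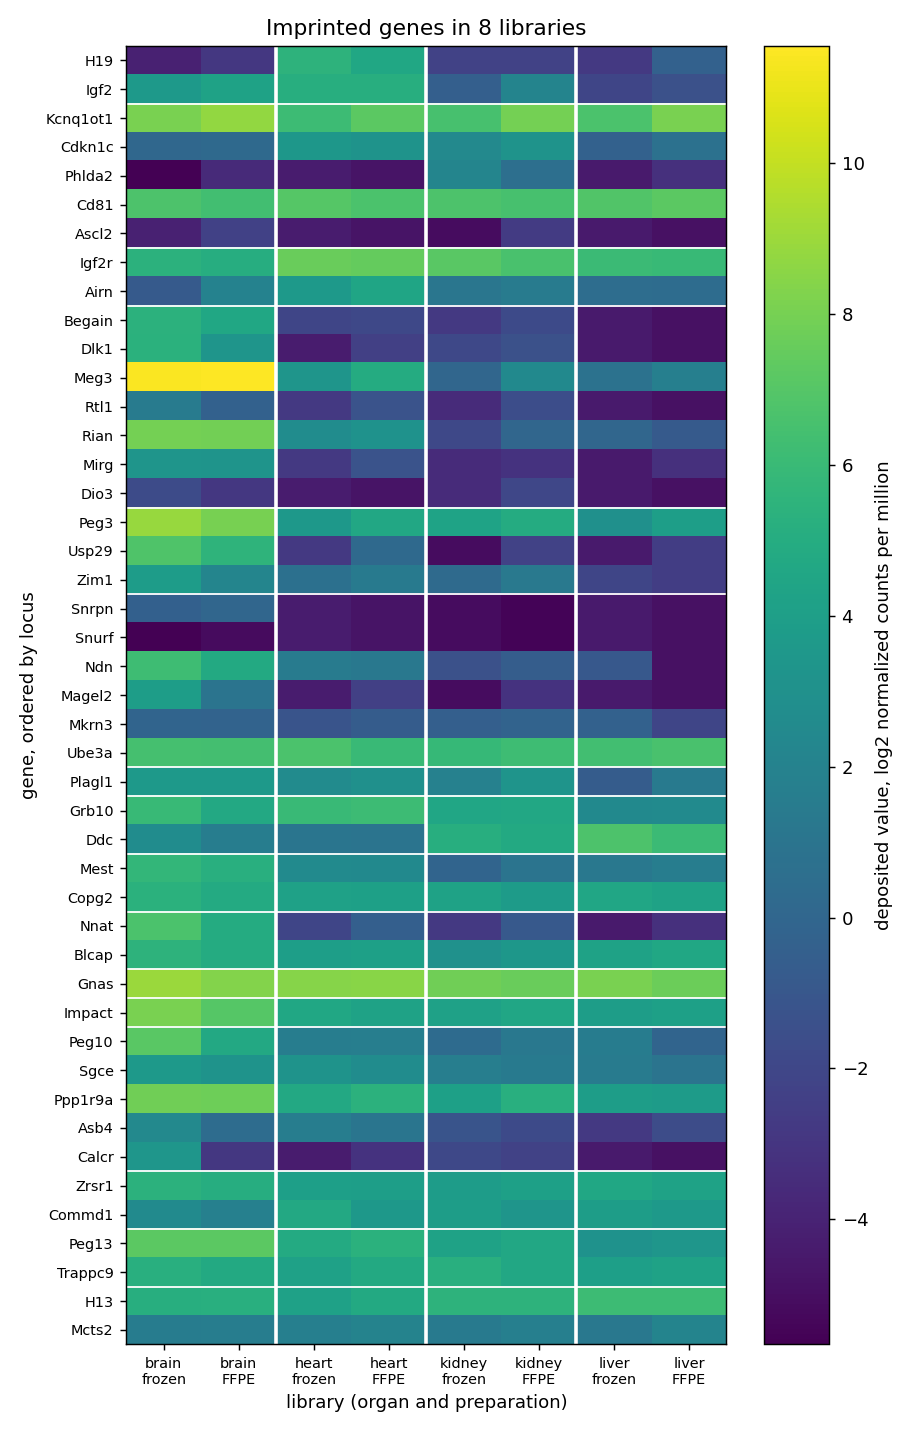
Deposited log2 normalized CPM (colour) of the 45 imprinted genes in the table (rows, ordered by locus, with white lines between loci) in 8 libraries (columns). Begain, Dlk1, Meg3, Rtl1, Rian and Mirg, the Peg3 block and Nnat are brightest in the 2 brain columns, H19 stands out in the 2 heart columns and Ddc in the 2 liver columns.

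Igf2 and H19, neighbours on chromosome 7, both had their highest levels in heart. Igf2 encodes a fetal growth factor, and H19, a noncoding RNA transcribed from the maternal copy, shares its enhancers. H19 stood at 44.2 and 23.7 CPM in heart, 0.0397 and 0.112 in brain, 0.176 and 0.181 in kidney and 0.0960 and 0.758 in liver. The heart libraries held 453 and 313 reads, and the other 6 between 1 and 11. H19 passed the filter through heart alone, so no test of it is given. Igf2 stood at 34.8 and 34.6 CPM in heart, 12.3 and 18.9 in brain, 0.702 and 4.21 in kidney and 0.192 and 0.344 in liver. No organ overlapped another in that order. In heart it exceeded the mean of the other 3 organs by 4.11 ± 0.45 log2 units (SE; limma adjusted p = 0.000131), and it was also higher in brain, by 2.53 ± 0.45 (limma adjusted p = 0.00117). Per kilobase of exon, H19 exceeded Igf2 2.95-fold and 1.60-fold in heart. In the annotation 62.8% of the exon bases of Igf2 are shared with another gene on the same strand, and the sources used here do not say how shared reads were counted. Brain thus had Igf2 reads with almost no H19 reads, and heart had both.

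Igf2r, a receptor gene of the same axis, and the members Airn and Grb10 were also highest in heart. Igf2r takes up and degrades Igf2, and Airn is the paternally expressed antisense RNA that starts inside it and silences it in cis. Igf2r stood at 199.4 and 176.7 CPM in heart, 138.9 and 95.6 in kidney, 66.1 and 59.9 in liver and 42.0 and 34.0 in brain, an order in which neighbouring organs did not overlap. Its heart difference was 1.53 ± 0.13 and its brain difference −1.55 ± 0.13 (limma adjusted p = 2.53e-05 and 1.25e-05). Airn stood at 12.5 and 22.1 CPM in heart, 0.555 and 3.85 in brain, 2.11 and 2.76 in kidney and 1.34 and 1.31 in liver. Airn was 3.28 ± 0.51 higher in heart (limma adjusted p = 0.000927). Airn overlaps Igf2r on the opposite strand, and the sources used here do not give the strand setting, so reads of the overlap cannot be told apart. Grb10, an adaptor that restrains insulin and growth factor receptors, stood at 64.9 and 71.5 CPM in heart, 60.8 and 26.6 in brain, 23.4 and 25.6 in kidney and 5.66 and 5.93 in liver. Grb10 rose in heart by 1.93 ± 0.26 and was lower in liver, by −2.80 ± 0.26 (limma adjusted p = 0.000388 and 2.83e-05). The heart libraries differed most in the atrial markers given above, whose part in these values was not tested. Between the heart libraries H19 and Igf2r were lower and Airn higher in FFPE, while Igf2 and Grb10 changed by −0.01 and 0.14 log2 units. These shifts were not all particular to heart: Igf2r was lower in FFPE in all 4 organs, and Airn higher in 3 of 4.

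The Dlk1 to Dio3 locus on chromosome 12 was read almost only in brain. Its maternal copy gives the noncoding RNAs Meg3, Rian and Mirg, and its paternal copy gives Dlk1, a Notch-related ligand, Rtl1, a retrotransposon-derived gene, and Dio3, which inactivates thyroid hormone. Meg3 stood at 2836 and 2991 CPM in brain, 9.94 and 30.4 in heart, 0.995 and 5.67 in kidney and 1.73 and 3.45 in liver. It was represented by 71510 and 53561 brain reads, and its brain difference was 9.27 ± 0.37 (limma adjusted p = 6.58e-07). Rian stood at 250.8 and 240.4 CPM in brain and at 0.234 to 8.72 CPM in the other 6 libraries, with a brain difference of 7.41 ± 0.46 (limma adjusted p = 3.44e-06). Mirg had 246 and 166 reads in brain and 0 to 5 elsewhere. The 3 RNAs kept nearly the same proportions in both brain libraries: per kilobase of exon Meg3 exceeded Rian 11.4-fold and 12.5-fold, and Rian exceeded Mirg 10.3-fold and 10.4-fold.

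The protein-coding genes of that locus were less alike between the brain libraries. Dlk1 stood at 40.9 and 10.2 CPM in brain, and had 1031 and 182 reads there and 0 to 8 elsewhere, with 0 in both liver libraries. Its mean in brain was at least 103.2-fold higher than in liver, with 3 reads per library as the floor. Begain, a postsynaptic-density protein gene next to the locus, stood at 42.4 and 24.1 CPM in brain with 1068 and 432 reads. It had 0 to 6 reads elsewhere, and its mean in brain was at least 134.4-fold higher than in liver by the same floor. Rtl1 had 72 and 14 reads in brain and 0 to 7 elsewhere. Rtl1 holds 15 miRNA hairpins of which 2 lie on its own strand. Dio3 reached 7 reads, in frozen brain, and was close to the floor throughout.

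The Peg3 domain on chromosome 7 was likewise highest in brain. Peg3 is a zinc-finger protein gene and Usp29 a deubiquitinase gene, both paternally expressed, whose starts lie 97 bases apart around the stretch printed above, and Zim1 is a maternally expressed zinc-finger neighbour. Peg3 stood at 477.0 and 263.0 CPM in brain, 11.3 and 24.8 in heart, 19.9 and 30.7 in kidney and 7.87 and 15.5 in liver. Its brain difference was 4.41 ± 0.34 (limma adjusted p = 8.92e-06). Usp29 stood at 110.8 and 45.3 CPM in brain, with 2794 and 811 reads, and had 0 to 15 reads in the other 6 libraries. Despite the shared start region, Peg3 was read in each of the 8 libraries while Usp29 had 0 reads in frozen kidney and frozen liver. Per kilobase of exon the ratio of Peg3 to Usp29 was 5.84 and 7.88 in brain. It was 29.6 in FFPE heart, from 15 Usp29 reads. Zim1 stood at 14.4 and 4.52 CPM in brain and 0.138 to 2.65 elsewhere, with a brain difference of 3.17 ± 0.56 (limma adjusted p = 0.00109).

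Genes of the Snrpn domain on chromosome 7, the region of the Prader-Willi and Angelman syndromes, fell into 3 kinds. Ndn and Magel2, intronless genes of the MAGE family active in neurons, were brain genes. Ndn stood at 73.4 and 28.2 CPM in brain, 2.73 and 2.35 in heart and 0 to 0.634 in kidney and liver, with a brain difference of 6.35 ± 0.79 (limma adjusted p = 0.000134). Magel2 had 377 and 35 reads in brain, 14.95 and 1.95 CPM, and 0 to 2 reads elsewhere. Its mean over the 2 brain libraries was at least 34.2-fold higher than in liver. Ube3a, a ubiquitin ligase gene whose paternal copy is silenced in neurons, was at a like level everywhere: 88.0 and 86.4 CPM in brain, 101.9 and 64.4 in heart, 58.8 and 75.5 in kidney and 80.6 and 95.9 in liver. Brain lay within the ranges of heart and liver and above kidney in Ube3a, and limma gave an organ F-test adjusted p of 0.373. Genes on the opposite strand, Snhg14 among them, overlap 27.27% of the exon bases of Ube3a. Without the strand setting, reads of that overlap cannot be told apart. Mkrn3, a ring-finger gene, had 3 to 23 reads in every library and did not enter the model.

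Snrpn and Snurf were almost unread, although the splicing-factor gene Snrpn is known as strongly expressed in brain. Snrpn had 19 and 18 reads in brain and 0 in the other 6 libraries, and Snurf, the reading frame at the start of the same transcript, had 0 reads in all 8. Snurf lies within Snrpn in the annotation and 100% of its exon bases are shared with other genes on the same strand. The sources used here do not say how reads in shared exons were counted. Snhg14 and Ipw, noncoding RNAs downstream of Snrpn, were looked up after the Snrpn values had been seen. Snhg14 had 951 and 980 reads in brain and 9 to 51 elsewhere, and Ipw 470 and 474 in brain and 0 to 2 elsewhere. Reads downstream of Snrpn were thus present in both brain libraries.

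Further paternally expressed genes had their peak in brain. Peg10, a retrotransposon-derived gene needed in placenta, stood at 139.8 and 26.3 CPM in brain and 0.896 to 3.26 elsewhere, with a brain difference of 4.85 ± 0.58 (limma adjusted p = 0.000102). Sgce, the epsilon-sarcoglycan gene that starts 102 bases from Peg10 on the other strand, ranged more narrowly, from 9.21 to 12.1 CPM in brain to 1.93 to 2.78 CPM in liver. Per kilobase of exon, Peg10 was 18.4 and 4.54 times Sgce in brain and 0.554 to 1.65 times in the other 6 libraries. Mest, a hydrolase-family gene used as a marker of mesoderm, stood at 52.9 and 36.0 CPM in brain and 0.878 to 6.04 elsewhere (brain difference 3.98 ± 0.33, limma adjusted p = 1.27e-05). Impact, a regulator of the amino-acid-sensing kinase GCN2, stood at 274.3 and 131.3 CPM in brain and 15.5 to 24.3 elsewhere (3.30 ± 0.25, limma adjusted p = 8.27e-06). Both brain libraries lay above all others for each of these 4 genes. Plagl1, a zinc-finger regulator of an imprinted network, was 12.6 CPM in both brain libraries, 6.34 and 7.89 in heart, 3.75 and 9.38 in kidney and 0.576 and 2.69 in liver, and was lower in liver by −2.64 ± 0.40 (limma adjusted p = 0.000557).

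The maternal and less settled genes of the Peg10 cluster on chromosome 6 were read in brain too. Ppp1r9a, which encodes the actin-binding neurabin, stood at 227.5 and 214.8 CPM in brain and 14.1 to 42.5 elsewhere (3.25 ± 0.23, limma adjusted p = 6.19e-06). Asb4, a ubiquitin-ligase adaptor gene, stood at 5.39 and 1.34 CPM in brain, 3.12 and 2.05 in heart and at most 0.410 in kidney and liver. Brain and heart overlapped for Asb4. Calcr, the calcitonin receptor gene, had 263 reads in frozen brain and 2 in FFPE brain, with 0 to 4 in the other 6 libraries, so that only 1 library carried it.

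A second set was highest outside brain. Cdkn1c, which stops the cell cycle, stood at 10.8 and 9.18 CPM in heart, 5.50 and 9.25 in kidney, 1.03 and 1.12 in brain and 0.768 and 1.65 in liver. Heart and kidney overlapped, as did brain and liver, and the heart and kidney differences were 2.26 ± 0.35 and 1.61 ± 0.35 (limma adjusted p = 0.000838 and 0.00632). Phlda2, which restrains placental growth, had 77 and 34 reads in kidney and 0 or 1 in the other 6 libraries. Its mean over the 2 kidney libraries, at 4.51 and 1.54 CPM, was at least 11.6-fold higher than in heart, where both libraries had 0 reads. Ddc, which makes dopamine and serotonin from their precursors, stood at 105.9 and 66.3 CPM in liver, 35.4 and 27.3 in kidney, 6.66 and 3.02 in brain and 1.95 and 1.90 in heart, without overlap. Ddc rose in liver by 3.69 ± 0.22 and in kidney by 1.78 ± 0.22 (limma adjusted p = 2.61e-06 and 0.000386). H13, a signal peptide peptidase gene, was the other member higher in liver, at 69.5 and 69.1 CPM there and 18.6 to 45.0 elsewhere (1.06 ± 0.15, limma adjusted p = 0.000414). The genes higher in kidney were Cdkn1c, Ddc, Igf2r and Phlda2. Phlda2 passed the filter through kidney alone, so its call is a description, and without either kidney library it left the model. Cdkn1c lost the call without either kidney library, and Igf2r lost it without frozen kidney. In those fits kidney had 1 library. Ascl2, a transcription factor of the placenta, had at most 3 reads and no fold is given.

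The narrowest ranges between organ means among the members tested were those of Mcts2 (0.32 log2 units), Ube3a (0.40), Cd81 (0.52), Trappc9 (0.82) and Gnas (0.94). Gnas, the stimulatory G protein gene with several imprinted promoters, stood at 492.0 and 327.7 CPM in brain, 346.1 and 353.1 in heart, 227.7 and 192.5 in kidney and 267.0 and 208.9 in liver. Brain and heart overlapped, and the brain difference of 0.64 ± 0.15 (limma adjusted p = 0.00543) was 0.44 without frozen brain (limma adjusted p = 0.117). Cd81, a tetraspanin gene, stayed between 80.6 and 150.7 CPM in all 8 libraries, with every organ overlapping another, and limma gave an organ F-test adjusted p of 0.141. These p-values do not show that Ube3a and Cd81 are equal between organs.

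Nnat, Mcts2, Zrsr1 and Peg13 each lie inside another member. Between organ means Nnat and Peg13 ranged over 9.65 and 3.96 log2 units and their hosts Blcap and Trappc9 over 1.94 and 0.82, while Zrsr1 and Mcts2 ranged over 1.22 and 0.32 and their hosts Commd1 and H13 over 1.92 and 1.60. Nnat, a neuronal proteolipid gene in an intron of Blcap on the opposite strand, stood at 104.5 and 30.8 CPM in brain, 0.195 and 0.682 in heart, 0.117 and 0.544 in kidney and 0 and 0.0689 in liver. Blcap, a small apoptosis-related gene, stood at 44.5 and 29.8 CPM in brain and 8.19 to 23.9 elsewhere. Per kilobase of exon Nnat was 3.90 and 1.72 times Blcap in brain and at most 0.0828 times in any other library. Peg13, a noncoding RNA inside Trappc9, stood at 146.0 and 145.7 CPM in brain, 29.6 and 39.7 in heart, 19.2 and 25.5 in kidney and 8.45 and 10.3 in liver, with no overlap between organs. Its brain difference was 2.92 ± 0.14 (limma adjusted p = 1.15e-06). Trappc9, a trafficking-complex gene, ranged from 16.8 to 36.5 CPM, with heart overlapping each other organ and brain overlapping kidney, and its organ F-test adjusted p by limma was 0.0563. The ratio of Peg13 to Trappc9 per kilobase was 6.83 and 8.73 in brain and 0.845 to 2.70 elsewhere.

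The other 2 inner genes are retrocopies. Zrsr1, a splicing-factor gene copied from X-linked Zrsr2 into an intron of Commd1, stood at 41.2 and 33.4 CPM in brain and 14.6 to 24.0 elsewhere (1.07 ± 0.16, limma adjusted p = 0.000444). Commd1, a copper and trafficking gene, went the other way, at 5.87 and 3.52 CPM in brain and 10.2 to 26.1 elsewhere (−1.65 ± 0.20, limma adjusted p = 0.000129). Per kilobase Zrsr1 was 9.29 and 12.5 times Commd1 in brain and 0.848 to 2.26 times elsewhere. Mcts2, copied from X-linked Mcts1 into an intron of H13, stood at 2.30 to 4.20 CPM in all 8 libraries, and limma gave an organ F-test adjusted p of 0.818. Zrsr2 stood at 7.10 to 17.3 CPM and Mcts1 at 4.78 to 11.7 CPM. Copies resemble their parents, and the sources used here do not say how reads that fit both were assigned. In the remaining pair, Mest and Copg2, whose 3′ ends overlap on opposite strands, the ratio was 1.67 and 1.60 in brain and at most 0.430 elsewhere. Copg2, a vesicle-coat subunit gene, itself ranged from 13.9 to 23.3 CPM outside brain and stood at 41.2 and 29.3 in brain.

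**Figure D3:**
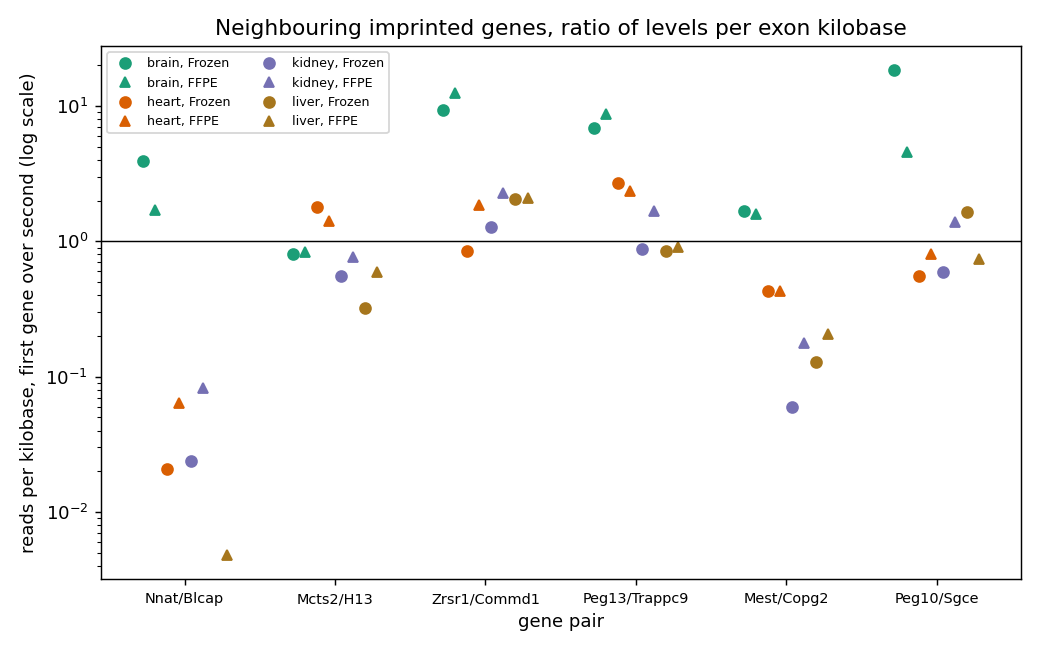
Ratio of reads per exon kilobase of the first gene of a pair to the second (y axis, log scale) for 6 pairs of neighbouring imprinted genes (x axis) in 8 libraries; colours are organs, circles frozen and triangles FFPE, and the ratio of 0 for Nnat in frozen liver is not drawn. For every pair except Mcts2/H13 the 2 brain points are the highest of the 8, between 1.60 and 18.4.

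Few members passed the test of FFPE against frozen tissue in the model over all organs. Kcnq1ot1 alone was higher in FFPE tissue, 1 of 38 members against 1.2% of all genes tested, and 0 were lower, against 2.18%. The median FFPE difference was 0.10 log2 units over the members and 0.07 over all genes. At an unadjusted p under 0.05 by limma 5 were higher, Igf2, Kcnq1ot1, Meg3, Peg13 and Plagl1, against 11.4% of all genes, and 4 lower, Commd1, Copg2, Ddc and Igf2r, against 10.1%. Limma's voom on the recovered reads called 7 lower, against 5.28% of all genes. Kcnq1ot1, the long unspliced antisense RNA that silences its domain on the paternal copy, stood at 276.8 and 439.5 CPM in brain, 71.2 and 147.9 in heart, 92.9 and 250.4 in kidney and 103.7 and 278.4 in liver. FFPE was the higher library in each of the 4 organs, by 0.67 to 1.43 log2 units, and the mean difference was 1.14 ± 0.15 (limma adjusted p = 0.0129). Trends over transcript length and GC content were fitted in each organ over the tested genes with a known length. With them taken out, the Kcnq1ot1 difference was 0.0086 (limma adjusted p = 0.98). The exons of Kcnq1ot1 total 93092 bases, far more than the 20626 of Ube3a, so it lies far out on the length trend. The part of length in its difference was not tested. Leaving out either library of brain, kidney or liver gave adjusted p-values by limma of 0.0597 to 0.109, and over all its alternatives they ran from 0.000792 to 0.98. The 7 noncoding RNAs among the tested members had a median FFPE difference of 0.73, and the 515 noncoding RNA genes tested in all had a median of 0.41, with 15 higher and 0 lower. Kcnq1ot1 lies within Kcnq1 on the opposite strand, and reads of unspliced Kcnq1 were not separated.

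Within brain the members moved more than the average over organs shows. Only 1 library stood on each side, so these are values without a test. Of the 38 members 11 were more than 2-fold lower in FFPE than in frozen brain, against 5.81% of all genes tested, and 3 were more than 2-fold higher, against 8.8%. The 11 were Asb4, Ddc, Dlk1, Grb10, Impact, Magel2, Ndn, Nnat, Peg10, Usp29 and Zim1. The ratio of frozen to FFPE brain was 7.65 for Magel2 (95% counting interval 5.40 to 11.2), 5.32 for Peg10 (4.83 to 5.87), 4.02 for Dlk1 (3.43 to 4.74), 3.40 for Nnat (3.10 to 3.73) and 2.60 for Ndn (2.36 to 2.88). Calcr, which is not in the model, had a ratio of 93.4 (25.6 to 775.1), from 263 against 2 reads. Those intervals cover counting error only. Meg3, Rian, Mirg, Ppp1r9a and Peg13 differed by less than 0.1 log2 units between the same 2 libraries, so the brain genes did not shift as 1 block. The 3 higher members were Airn, with 14 reads in frozen and 69 in FFPE brain, H19 with 1 and 2, and Phlda2 with 0 and 1.

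Regional brain markers moved between the same libraries. Of the 9 hypothalamic markers 7 were higher in frozen brain, among them the peptide genes Avp (12.2 and 0 CPM) and Oxt (38.2 and 0.112 CPM), and Agrp was at 0 in frozen brain. All 9 cerebellar markers were higher in FFPE brain, with Gabra6 and Pcp2 at 0 in frozen brain. The pituitary hormone genes were nearly absent from frozen brain. Several of the 11 members, such as Magel2, Ndn, Nnat and Dlk1, are known as genes of hypothalamic neurons. The part of tissue sampling in their values was not tested, and in bulk tissue fewer cells of a type and less RNA per cell cannot be told apart. The sex of the animals also differed between these 2 libraries, as the Xist and Y-linked reads show.

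**Figure D4:**
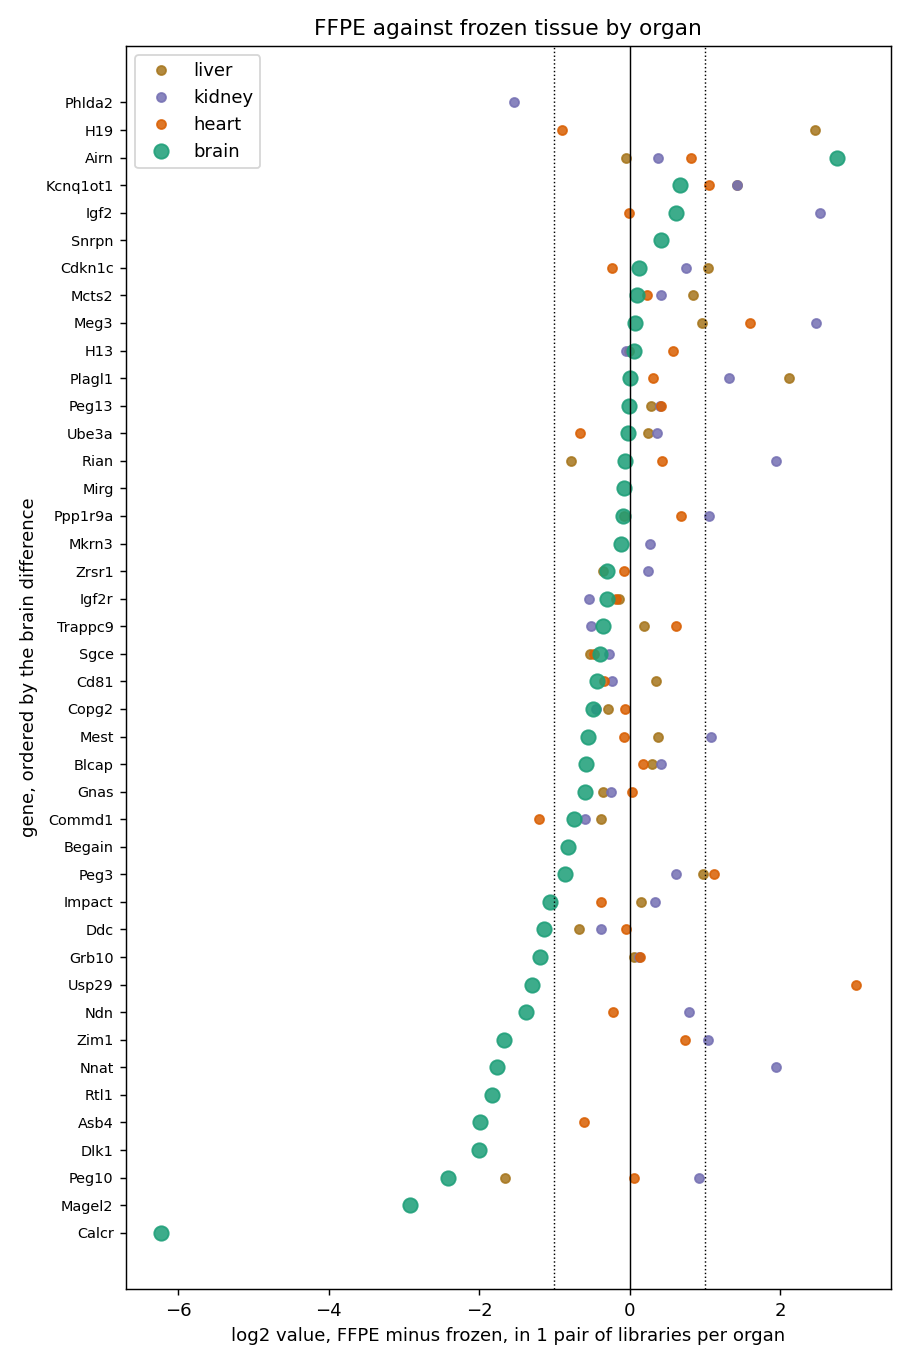
FFPE minus frozen difference in log2 normalized counts (x axis), 1 pair of libraries per organ (colours, larger points for brain), for members with at least 10 reads in 1 library of the pair (y axis, ordered by the brain difference); dotted lines mark 2-fold. Calcr lies at −6.23 in brain, and 11 members of the limma model lie left of −1 there, while 22 of 32 kidney points lie right of 0.

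The direction of the FFPE difference varied between organs. Among members with at least 10 reads in 1 library of the pair, FFPE was the higher in 22 of 32 in kidney, against 54.1% of all genes with as many reads. It was the higher in 9 of 40 in brain (46.0% of all genes). In heart it was the higher in 17 of 32 (54.4%) and in liver in 15 of 27 (49.9%), shares near those of all genes. In kidney 12 of 38 members were more than 2-fold higher, against 13.3% of all genes, and 1, Phlda2, lower, against 3.89%. Among them Igf2 had 12 and 93 reads, Meg3 17 and 125, and Plagl1 64 and 207, while Nnat had only 2 and 12. In heart 8 were higher, against 13.7%, and 1, Commd1, lower, against 5.54%. In liver 9 were higher, against 10.1%, and 2, Ndn and Peg10, lower, against 4.82%. Many of these rest on few reads: Usp29 had 0 and 4 reads in kidney and 0 and 2 in liver. Adrenal cortex markers, which could come with kidney, summed to 0.293 and 4.53 CPM there, with 7 of 8 higher in FFPE kidney. The 6 adipocyte markers summed to 17.2 and 46.0 CPM in kidney and all 6 were higher in FFPE, among them Ucp1 (0 and 6.53 CPM) and Adipoq (0.0585 and 3.31 CPM). The part of either in the kidney values was not tested.

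Other imprinted genes outside the 46 were counted in the same way. Of 48 listed 36 were tested, 19 higher and 9 lower in brain (34.7% and 31.6% of all genes) and 8 higher and 23 lower in liver (27.3% and 35.2%). Their median differences were 0.60 in brain and −1.56 in liver, against 0.05 and −0.13 over all genes. Those with the widest ranges were the brain genes Rasgrf1 (187.7 and 127.7 CPM in brain), Nap1l5 (305.6 and 118.7 CPM) and Zdbf2 (113.5 and 54.6 CPM), the liver amino-acid transporter gene Slc38a4 (739.1 and 919.5 CPM in liver), and the kidney transporter genes Slc22a18 (135.7 and 71.2 CPM in kidney) and Slc22a2 (118.1 and 67.7 CPM). Of 22 factors tested that set or keep imprints, 13 were called by the F-test, against 80.9% of all genes, with 8 higher (34.7%) and 3 lower (31.6%) in brain. Zfp57 stood at 7.93 and 4.97 CPM in brain and 0.384 to 2.28 elsewhere, and Tet1, which oxidises methylcytosine, at 21.9 and 23.1 CPM in brain and 0.384 and 0.896 in liver. Among DNA methyltransferases, Dnmt1 (34.2 and 31.4 CPM) and Dnmt3a (78.1 and 91.8 CPM) were highest in brain and Dnmt3b in liver (4.03 and 4.41 CPM). In the insulin-like growth factor axis all 15 genes tested differed between organs, against 80.9% of all genes. In brain 1 was higher (34.7% of all genes) and 9 lower (31.6%), and in liver 8 were higher (27.3%) and 4 lower (35.2%). Igf1, the postnatal growth factor, stood at 458.9 and 575.7 CPM in liver and at most 15.4 CPM elsewhere, the organ in which Igf2 was lowest. Igfbp1 (101.6 and 134.4 CPM), Igfals (64.9 and 50.4 CPM), Igfbp2 (226.3 and 128.6 CPM) and Igfbp4 (578.4 and 586.2 CPM), which carry these factors, were highest in liver, and Igfbp7 in kidney (303.4 and 240.2 CPM).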

How the data were processed

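Per the labels' protocols, Trizol was used for extraction, FFPE tissue was deparaffinised first, and RNA was sheared with PIXUL. HISAT2, featureCounts, limma and genome mm10 are named in the submitters' processing notes. The sources used here do not give the annotation, strand setting or scaling method. Opposite-strand genes overlap 21.96% of the exon bases of Gnas and 30.65% of those of Cdkn1c, and reads there were not separated. Values in the file are log2 CPM with 0.5 reads added, as the authors deposited them. Each value gave a whole read count within 1e-06, for 100% of values in every library. The p-values rest on 1 library per organ and preparation, and whether these came from separate animals is not given. Genes whose log2 CPM exceeded 0 in 2 or more libraries (15819) were fitted in R 4.3.3 by limma 3.58.1 (mean-variance trend on), with terms for organ and preparation, 3 residual and 5.35 prior degrees of freedom, and Benjamini-Hochberg adjustment over all genes tested. Differences are on the log2 scale with 0.5 reads added, which understates changes of genes with few reads. GENCODE M21 (GRCm38) gave exon lengths, for 24732 of 25904 symbols, and positions. Members with at least 10 reads in 1 library are named with levels, and of other lists up to 6 genes with the widest organ range among those called, of which 1 is not reported here. Members, lists and rules were chosen with earlier results of these data known. Alternatives were filters, scaling, pseudocount, weights, variance settings, length and GC trends, each preparation alone, and leaving out each library.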

Additional observations from a re-analysis of the deposited data

Results flagged for a closer look

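Nespas, the antisense RNA of the Gnas locus, had no row under its symbol, but RefSeq gives it as a synonym of Gnasas1, which was outside the list. Gnasas1 had 61 reads in frozen brain and 13 in FFPE brain, with 0 in the other 3 frozen libraries and 2 to 5 in the other FFPE libraries.

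Zim1, Usp29 and Nnat moved in opposite directions between FFPE and frozen tissue in different organs. Zim1 changed by 1.04 log2 units in kidney and −1.66 in brain, Usp29 by 3.01 in heart and −1.29 in brain, and Nnat by 1.95 in kidney and −1.76 in brain. With 1 library on each side the difference between organs was not tested. The kidney and heart values rest on few reads for Usp29 (1 and 15 in heart) and Nnat (2 and 12 in kidney).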

How the results depend on the processing

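A tally followed 36 calls: for each called member its largest organ difference only, and the FFPE call of Kcnq1ot1. Of 590 values of these under an alternative, 573 kept direction and call, 17 lost the call and 0 changed direction. The 17 concerned Asb4 and Trappc9 in liver, Gnas in brain and Kcnq1ot1 in FFPE. Other calls given above lie outside the tally, and some of them were lost. Asb4 lost its brain call with quantile normalization, and Grb10 its brain call without a mean-variance trend. A member that failed the filter under an alternative gave no value there and was not counted. The values include organ calls of the 7 members that passed the filter through 1 organ, so the tally is not support for those calls. Without the scaling factor, which shifts the median of all genes to 0.98 in brain, −1.03 in heart and 0.54 for FFPE, 19 members were lower in heart (58.9% of all genes), 11 lower in kidney (13.2%) and 10 higher in FFPE (23.1%). With log2(CPM + 1) 13 were lower in heart (37.4%). With median centring 4 were higher in liver (Cd81, Commd1, Ddc and H13), against 30.0% of all genes. Quantile normalization gave 2 higher in FFPE (Kcnq1ot1 and Meg3), against 0.809% of all genes. With voom 7 were lower in FFPE (5.28%), with the stricter filter 1, Commd1 (4.18%). Without a mean-variance trend 9 were lower in kidney (16.6% of all genes) and 0 higher in FFPE, where limma called 0 of all genes higher. With length and GC trends removed 0 were higher in FFPE (0.407% of all genes) and 3 lower (3.37%), Commd1, Gnas and Igf2r. In frozen libraries alone 2 members were highest in kidney (16.0% of all genes) and 2 in liver (26.7%), and in FFPE libraries alone 2 in kidney (16.4%). Leaving out each library in turn gave 17 to 27 higher in brain (17 without frozen brain), 1 to 5 higher and 4 to 17 lower in kidney (1 and 4 without frozen kidney, 2 higher without FFPE kidney), 3 to 9 lower in heart (3 without frozen heart), 2 to 4 higher in liver (4 without frozen heart) and 0 to 1 higher in FFPE. Calls over all genes also became fewer in brain, heart and kidney without the frozen library of that organ. An organ left with 1 library is assumed to vary like the others. The libraries carry no replicate numbers, and the organ term compares FFPE with frozen tissue within organs. Dio3 and Ascl2 are near the floor, and values of 0 to 15 reads have wide counting error.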
